A study of Mus musculus with 9 samples.

Results

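The MYC, MAX and MXD network is a set of basic helix-loop-helix leucine zipper transcription factors. The 10 genes described here were chosen by name, as the core genes of that network: Myc, Mycn, Mycl, Max, Mxd1, Mxd3, Mxd4, Mxi1, Mnt and Mlx. Each had 1 probe set on the array, and all 10 were among the 19938 genes tested. The series measured total RNA on 9 arrays, 3 in each of 3 groups of mouse cells. The osteosarcoma group held 3 tumour-derived lines, called lines 1, 2 and 3, from adult C57BL/6 mice with the genotype Osx-Cre p53 fl/fl Rb fl/fl. Osx-Cre expresses Cre recombinase in the osteoblast lineage, and the labels call these lines fibroblastic. Lines 1 and 3 were from females and line 2 from a male, and all were grown subconfluent below passage 8. Osteoblasts were cells of the mouse bone marrow stromal line Kusa4b10, differentiated for 21 days with ascorbate. Pre-osteoblasts were undifferentiated Kusa4b10 cells. Each osteosarcoma array is a different line, whereas the Kusa4b10 arrays are independent samples of 1 line. In the osteosarcoma comparisons, tumour state, deleted alleles, line of origin and culture history cannot be told apart. In the comparison of the Kusa4b10 groups, differentiated state, medium, time in culture and growth state cannot be told apart.

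MYC proteins bind DNA only as partners of MAX, which is stable and widely expressed, and MYC-MAX pairs activate genes of growth, ribosome production, metabolism and the cell cycle. The MXD proteins (MXD1, MXI1, MXD3 and MXD4) and MNT also pair with MAX, bind the same DNA letters and recruit SIN3-histone deacetylase repressor complexes. MLX is a MAX-like protein that pairs with the glucose-sensing Mondo proteins and with some MXD proteins. MYC is frequently amplified in human osteosarcoma, and in many cell types MYC falls and MXD1 rises as cells stop dividing and differentiate.

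The canonical site of the network is the E-box, CACGTG, which reads the same on both strands. RefSeq promoter windows, from 250 bases before to 50 after a start given for the gene in build GRCm38.p6, were found for 9 of the 10 genes. Of these 9 genes, 4 held CACGTG in the window, a share of 44.4%, whereas 8.09% of all 27025 genes with a window held it. The 30 bases around each of these matches are shown because they are the letters that the network's own proteins recognise, and they lie in genes of the network. They are written 5′ to 3′ on the gene's strand, with the E-box in capitals.
Max: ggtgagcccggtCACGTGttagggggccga
Mxd4: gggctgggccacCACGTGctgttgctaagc
Mnt: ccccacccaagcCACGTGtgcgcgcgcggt
Mlx: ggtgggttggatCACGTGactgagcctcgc
The Max stretch is chr12:76962234-76962263 on the minus strand, and its E-box begins 3 bases before the start. The Mxd4 stretch is chr5:34187912-34187941 on the minus strand, with the E-box 219 bases before the start. The Mnt stretch is chr11:74830789-74830818 on the plus strand, 123 bases before the start, and the Mlx stretch is chr11:101087238-101087267 on the plus strand, 40 bases before it. The starts used for Max, Mnt and Mlx lie 75, 118 and 583 bases inside the annotated gene. The E-boxes of Max and Mlx are therefore inside the annotated gene, and that of Mnt reaches its first base. Only the E-box of Mxd4 lies wholly upstream of its gene. The windows of Mycn, Mycl, Mxd1, Mxd3 and Mxi1 did not hold these letters, and Myc had no window. A match describes the sequence and is not a measured binding site.

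Median levels of the arrays over all probe sets ran from 7.43 to 7.56 on the log2 scale, and no array stood apart on this measure. The osteoblast cultures had higher levels of 8 of 11 osteoblast markers than the pre-osteoblasts, but also of 6 of 9 adipocyte markers. Among the 8, the call of Sp7 was lost in 6 of 9 fits with 1 array left out (limma adjusted p up to 0.136). That of Ifitm5 was lost in 4 of 9 (limma adjusted p up to 0.0849). The mean adipocyte marker level was 10.57 to 11.23 in osteoblast cultures, 8.00 to 8.49 in pre-osteoblasts and 7.42 to 7.93 in the osteosarcoma lines. Of 10 haematopoietic and macrophage markers, Cd14 fell by 0.43 in osteoblasts relative to pre-osteoblasts and was 0.48 higher in osteosarcoma lines than in osteoblasts, where Fcer1g fell by 0.23. The fall of Cd14 was not called without osteoblast sample 1 or 2 or pre-osteoblast sample 1 (adjusted p up to 0.0611), nor that of Fcer1g without osteoblast sample 2 or 3 (adjusted p up to 0.0611). No endothelial or epithelial marker out of 6 each was called by limma in any comparison, and at an unadjusted p under 0.05 at most 1 of each list was. Of the endothelial markers, Tek read 9.02 in line 1, 6.28 in line 2 and 7.15 in line 3. Rb1, one of the deleted genes, read 9.26, 9.67 and 9.85 in lines 1, 2 and 3, 10.63 to 10.65 in osteoblasts and 9.17 to 9.28 in pre-osteoblasts. It was therefore not lower in the lines than in pre-osteoblasts. Whether its probe set lies in the deleted exon was not checked, so this value does not test the genotype labels.

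Levels are log2 values, so a difference of 1 is a doubling of signal. A gene was called when its limma p, adjusted by Benjamini-Hochberg over all 19938 genes, was below 0.05. By the F test over the 3 groups, 5 of the 10 network genes were called (Myc, Mxd1, Mxd3, Mxi1 and Mlx), beside 38.4% of all genes, and 3 were called without osteoblast sample 1. Between osteoblasts and pre-osteoblasts, 2 genes were called (26.1% of all genes): Myc higher (10.3% of all genes were higher) and Mxd3 lower (15.8% were lower). Between osteosarcoma lines and pre-osteoblasts, 3 were called (23.5% of all genes), with Myc and Mxd3 higher (9.96%) and Mxd1 lower (13.5%). That count fell to 1, Myc, when pre-osteoblast sample 1 or sample 3 was left out. Between osteosarcoma lines and osteoblasts, 4 were called (27.4% of all genes), with Mxd3 higher (14.7%) and Mxd1, Mxi1 and Mlx lower (12.7%).

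Counted without a test, the arrays of osteoblasts and pre-osteoblasts did not overlap for 5 of the 10 genes, and neither did they for 44.2% of all genes. For osteosarcoma lines against pre-osteoblasts the count was 7 (35.6% of all genes), and for osteosarcoma lines against osteoblasts it was 5 (38.7%). With 10 genes, 1 gene more or less moves a share by 10 percentage points. The 7 of 10 lies furthest from the share of all genes, but it counts very narrow gaps. Mycn, Mnt, Mlx and Mxi1 were apart there by only 0.02, 0.02, 0.06 and 0.07, and none of them was called. The share called in that comparison, 30% of the 10 genes, was near the 23.5% of all genes. Which genes moved, and how, is given gene by gene below. The median difference of the 10 genes was 0.09 in osteoblasts and -0.09 in the lines, each against pre-osteoblasts, and -0.08 in the lines against osteoblasts. Over all genes these medians were -0.0037, -0.016 and -0.018. The comparisons share arrays, so their values for a gene are not independent of each other.

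**Figure D1:**
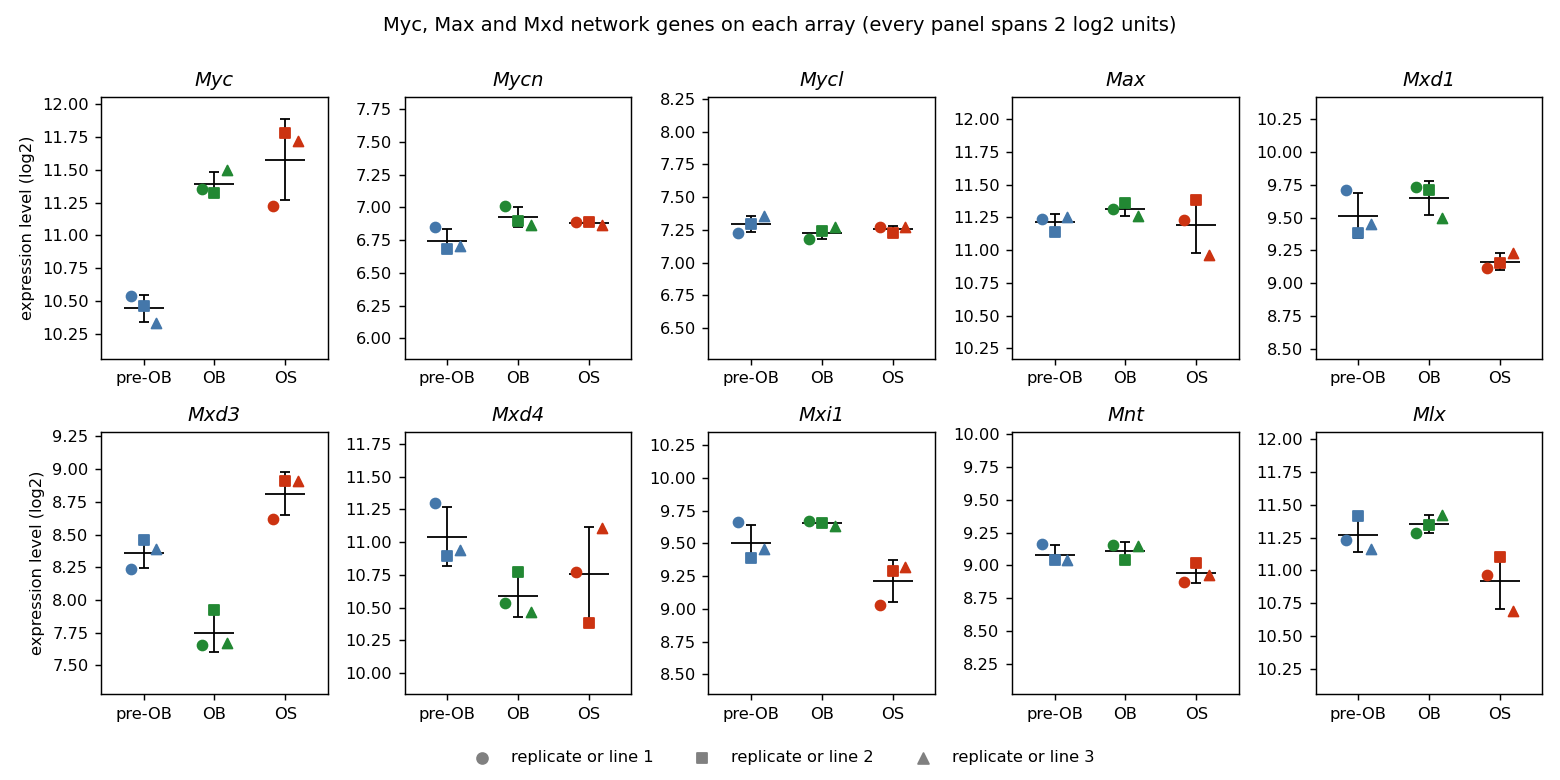
Level of each network gene (vertical axis, log2) on each array of pre-osteoblasts (pre-OB), osteoblasts (OB) and osteosarcoma lines (OS); symbols give the sample or line number, horizontal bars the mean and whiskers 1 SD, n = 3. Myc is low in pre-osteoblasts alone, Mxd3 is lowest in osteoblasts and highest in the tumour lines, and Mxd1 and Mxi1 are lowest in the tumour lines.

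**Figure D2:**
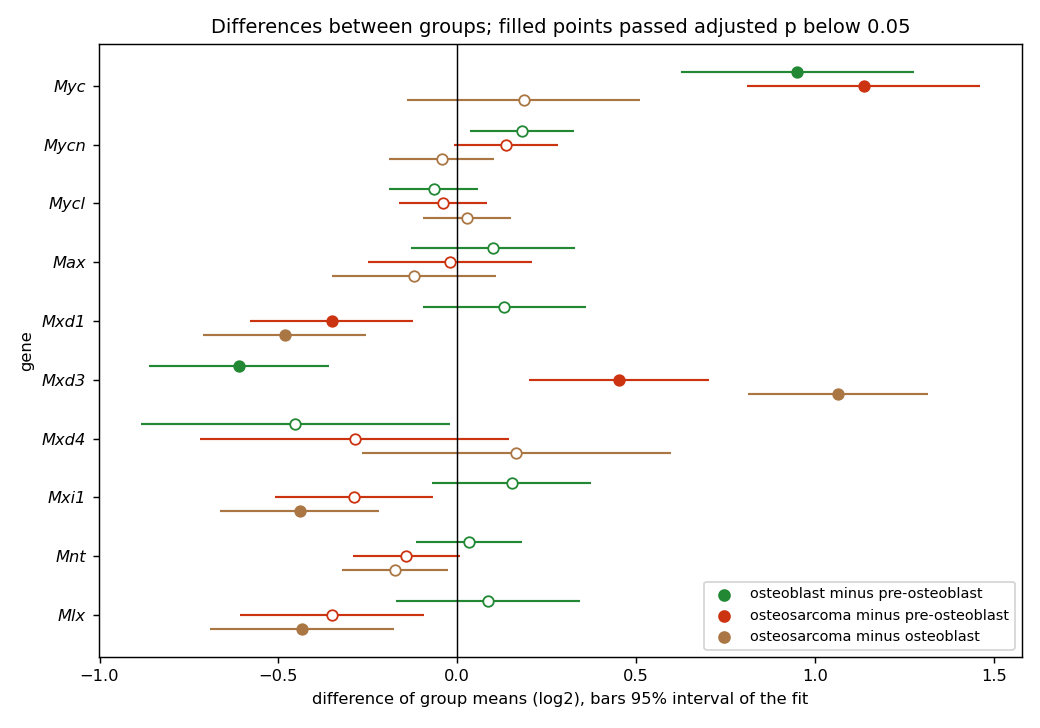
Difference of group means for each network gene (horizontal axis, log2) in the 3 comparisons, with the 95% interval of the limma fit; filled points had an adjusted p below 0.05. Myc against pre-osteoblasts and Mxd3 against osteoblasts are the widest differences, and the intervals of Mycl and Max cross 0 in every comparison.

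Myc, the founding gene of the network, encodes the activator c-MYC. It read 10.53, 10.46 and 10.33 in pre-osteoblast samples 1, 2 and 3. It read 11.36, 11.32 and 11.50 in the osteoblast samples, and 11.23, 11.79 and 11.72 in osteosarcoma lines 1, 2 and 3. All osteoblast and osteosarcoma arrays lay above all pre-osteoblast arrays, by at least 0.69. Against pre-osteoblasts, Myc rose by 0.95 ± 0.14 (SE) in osteoblasts, a 1.93-fold difference (limma adjusted p = 0.00186). In osteosarcoma lines it rose by 1.14 ± 0.14, or 2.20-fold (limma adjusted p = 9.34e-04). The transcript was thus higher in the differentiated cultures as well as in the tumour lines. In these bulk samples, more cells with the transcript and more transcript per cell cannot be told apart. Adipocyte markers, with the ranges given above, were also higher in the osteoblast cultures, and their part in the Myc difference was not tested.

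Osteosarcoma lines and osteoblasts overlapped in Myc. The difference was 0.19 ± 0.14, with a 95% interval from -0.14 to 0.51 and a limma adjusted p of 0.401. Line 1, at 11.23, lay at -0.17 from the osteoblast mean, while lines 2 and 3 lay 0.39 and 0.33 above it. Without line 1 the difference was 0.36 and passed the test (limma adjusted p = 0.0195), so whether the tumour lines exceeded the osteoblasts in Myc rested on that line. The range over the lines was 0.56, wider than the 0.18 among osteoblast samples or the 0.20 among pre-osteoblast samples. Of all genes, 85.0% had a range over the lines no wider than that of Myc.

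Mycn and Mycl encode N-MYC and L-MYC, MYC paralogues of embryonic and neural tissues and of some tumours. Both read below 7.97, the median gene level, on every array, in the range where RMA values compress differences. Mycn read 6.85, 6.68 and 6.70 in pre-osteoblasts, 7.01, 6.90 and 6.87 in osteoblast cultures, and 6.89, 6.89 and 6.87 in the lines. All 6 osteoblast and osteosarcoma arrays were above the pre-osteoblast arrays, by a gap of only 0.02. The Mycn difference between osteoblasts and pre-osteoblasts was 0.18 ± 0.06 (limma adjusted p = 0.0714). It passed without pre-osteoblast sample 1 (0.23, limma adjusted p = 0.0341). Mycl ran from 7.18 to 7.36 over all 9 arrays, and its groups overlapped in every comparison. Its largest difference was -0.07 ± 0.05, between osteoblasts and pre-osteoblasts, with an interval from -0.19 to 0.06. The Myc difference was thus not accompanied by a called difference in either paralogue.

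Max encodes the obligate partner through which MYC, MXD and MNT proteins bind DNA. It read 11.24, 11.14 and 11.26 in pre-osteoblasts, 11.32, 11.36 and 11.26 in osteoblast cultures, and 11.23, 11.38 and 10.97 in lines 1, 2 and 3. Line 3 was the lowest array and line 2 the highest, and the osteosarcoma lines spanned both other groups. None of the 3 differences passed the test. They were 0.10, -0.02 and -0.12 (osteoblasts against pre-osteoblasts, then the lines against pre-osteoblasts and against osteoblasts), each with an SE of 0.10. The sign of the difference between lines and pre-osteoblasts was not stable: it was 0.09 without line 3 and 0.03 with arrays centred on their medians.

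Mxd1 encodes MAD1, the MXD protein best known for rising in differentiating cells. It read 9.71, 9.39 and 9.45 in pre-osteoblasts, 9.74, 9.71 and 9.50 in osteoblast cultures, and 9.11, 9.15 and 9.23 in lines 1, 2 and 3. All 3 tumour lines lay below all 6 Kusa4b10 arrays, and they differed little among themselves. Mxd1 fell by 0.48 ± 0.10 in the lines relative to osteoblasts, a 1.40-fold difference (limma adjusted p = 0.00760). Relative to pre-osteoblasts it fell by 0.35 ± 0.10 (limma adjusted p = 0.0355), a call that did not hold when single arrays were left out. The adjusted p was 0.0986 without line 1, 0.0742 without line 2, 0.0505 without osteoblast sample 1, 0.0926 without pre-osteoblast sample 1 and 0.0677 without sample 3. Between osteoblasts and pre-osteoblasts the groups overlapped, and the difference of 0.13 ± 0.10 had an interval from -0.10 to 0.36 (limma adjusted p = 0.407).

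The promoter of Mxd1 upstream of its annotated gene is shown because Mxd1 and Mxi1 were the repressors with lower levels in the lines. These 175 bases, chr6:86669235-86669409 on the minus strand of GRCm38.p6 (RefSeq), have each CCAAT in capitals, searched on both strands. CCAAT is the letter pattern of the NF-Y factor, and 37.4% of all 32851 promoter windows hold it.
Mxd1 promoter: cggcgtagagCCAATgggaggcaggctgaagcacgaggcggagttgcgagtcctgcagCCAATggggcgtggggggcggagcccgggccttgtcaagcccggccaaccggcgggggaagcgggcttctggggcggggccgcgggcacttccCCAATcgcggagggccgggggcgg
No CACGTG lies in this stretch or in the rest of the Mxd1 window.

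Mxi1 encodes MXI1 (also called MAD2), a MAX-binding repressor. It read 9.66, 9.39 and 9.45 in pre-osteoblasts, 9.67, 9.66 and 9.63 in osteoblast cultures, and 9.03, 9.29 and 9.32 in lines 1, 2 and 3. The lines again lay below every Kusa4b10 array, with line 1 lowest, and the osteoblast samples were within 0.04 of each other. In the lines Mxi1 fell by 0.44 ± 0.10 relative to osteoblasts, or 1.36-fold (limma adjusted p = 0.0101). The difference from pre-osteoblasts was -0.29 ± 0.10 and did not pass (limma adjusted p = 0.0655), although the arrays did not overlap. Osteoblasts and pre-osteoblasts differed by 0.15 ± 0.10 (limma adjusted p = 0.319). The differences against osteoblasts held for Mxd1 and for Mxi1 without each array in turn.

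Mxd3 encodes MAD3, an unusual MXD protein that is associated with proliferating cells, in S phase in particular. It read 8.23, 8.46 and 8.39 in pre-osteoblasts, 7.66, 7.92 and 7.67 in osteoblast cultures, and 8.62, 8.91 and 8.91 in lines 1, 2 and 3. The 3 groups were in separate ranges, with osteoblasts lowest, pre-osteoblasts between and tumour lines highest. Mxd3 fell by 0.61 ± 0.11 in osteoblasts relative to pre-osteoblasts, or 1.53-fold (limma adjusted p = 0.00429). In the lines it rose by 1.06 ± 0.11 relative to osteoblasts, or 2.09-fold (limma adjusted p = 3.26e-04). The rise of the lines over pre-osteoblasts was 0.45 ± 0.11 (limma adjusted p = 0.0188). That last call was lost without line 2 (adjusted p = 0.0503), line 3 (0.0528), pre-osteoblast sample 1 (0.0675) or sample 3 (0.0525). Mxd3 therefore went opposite to Mxd1 and Mxi1 in the lines, although all encode MAX-binding repressors.

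Proliferation genes moved with Mxd3. Of 19 measured genes of DNA replication and mitosis, 14 were lower and 0 higher in osteoblasts than in pre-osteoblasts, with Bub1b, a spindle checkpoint kinase, lowest at -2.75 ± 0.35 (limma adjusted p = 8.57e-04). Between the lines and osteoblasts, 17 were higher and 0 lower, again led by Bub1b (2.99 ± 0.35). Between the lines and pre-osteoblasts no proliferation gene was called by limma. At an unadjusted p under 0.05, 4 were higher there and 0 lower, and 4 were called higher without pre-osteoblast sample 2. The median differences of the list were -1.59, 0.31 and 1.87 (osteoblasts against pre-osteoblasts, then the lines against pre-osteoblasts and against osteoblasts). In that order, 73.7%, 0% and 89.5% of the list were called, beside 26.1%, 23.5% and 27.4% of all genes. The mean level of the list was 10.06, 10.94 and 10.56 in pre-osteoblasts, 8.85, 9.50 and 8.80 in osteoblast cultures, and 10.73, 11.12 and 10.58 in lines 1, 2 and 3. Sample 2 was the highest of each Kusa4b10 group in this mean and in Mxd3. Lines 1 and 3 went otherwise: their list means of 10.73 and 10.58 were inside the range of pre-osteoblasts, while their Mxd3 levels of 8.62 and 8.91 were above the 8.46 of the highest pre-osteoblast sample. The part of proliferation in the Mxd3 differences was not tested.

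**Figure D3:**
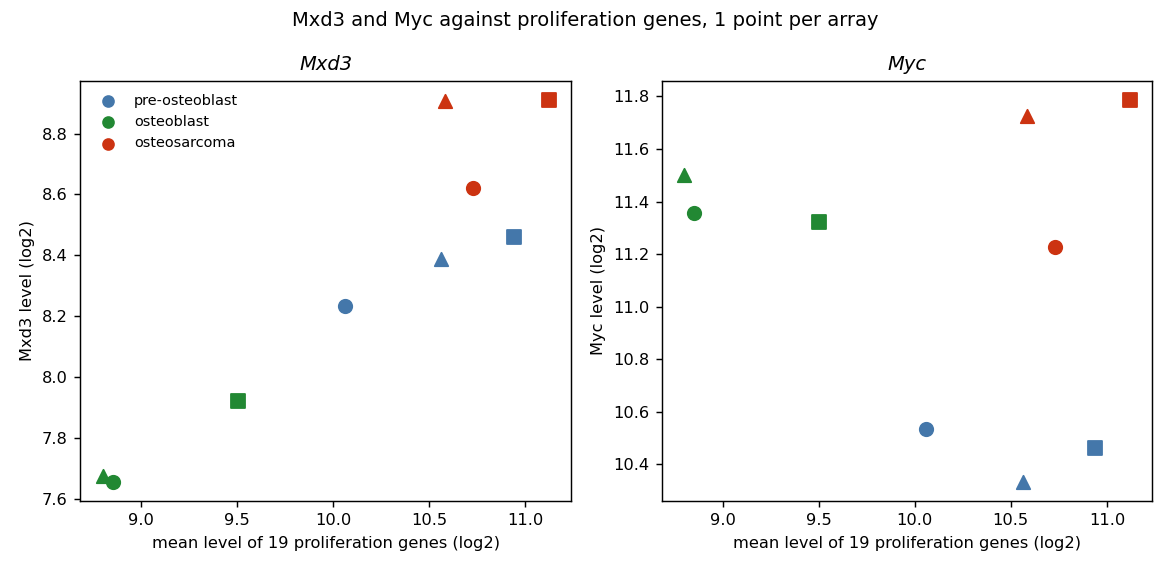
Level of Mxd3 (left) and Myc (right) on the vertical axis (log2) against the mean level of 19 proliferation genes (horizontal axis, log2), 1 point per array; colours give the group and symbols the sample or line number. Osteoblast arrays have the lowest proliferation means (8.80 to 9.50) and the lowest Mxd3, whereas their Myc (11.32 to 11.50) is above that of every pre-osteoblast array.

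Myc did not follow the proliferation genes in this way. Osteoblasts had the lowest proliferation means of the series with Myc above 11.3, and pre-osteoblasts had proliferation means up to 10.94 with Myc below 10.6. The upstream promoter of Mxd3 is shown because this gene had the widest difference among the repressors. These 81 bases, chr13:55329901-55329981 on the minus strand of GRCm38.p6 (RefSeq), end where the annotated gene begins.
Mxd3 promoter: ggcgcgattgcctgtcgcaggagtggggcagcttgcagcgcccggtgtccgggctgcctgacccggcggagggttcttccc
The whole Mxd3 window held no CACGTG and no CCAAT on either strand. It also lacked TTTGAA and TTCGAA, the letters of the cell cycle genes homology region (CHR). The E2F letters TTTCCCGC, TTTGGCGC, TTTCGCGC and TTTGGCGG were absent as well, again on either strand. Other motifs were not searched for. Of all windows, 7.15% held CACGTG, 37.4% CCAAT, 19.2% the CHR letters and 2.37% the E2F letters. Absence of these letters says nothing about the factors that act on the gene.

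Mxd4 encodes MAD4, a MAX-binding repressor. It read 11.30, 10.89 and 10.94 in pre-osteoblasts, 10.53, 10.77 and 10.47 in osteoblast cultures, and 10.77, 10.39 and 11.11 in lines 1, 2 and 3. Osteoblasts lay below pre-osteoblasts on every array, by a gap of 0.12, and the lines overlapped both groups, with pre-osteoblast sample 1 above every line. The osteoblast difference was -0.45 ± 0.19 (limma adjusted p = 0.124), and with only those 2 groups in the fit it passed (adjusted p = 0.0444). The lines differed from pre-osteoblasts by -0.29 ± 0.19 (adjusted p = 0.339) and from osteoblasts by 0.17 ± 0.19 (adjusted p = 0.587), and the latter became -0.01 without line 3. The lines ranged over 0.73 in Mxd4, the widest range of the 10 genes among the lines, with line 3 high and line 2 low.

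Mnt encodes a MAX partner that, unlike the MXD proteins, is expressed in both dividing and resting cells and opposes MYC at shared targets. It read 9.17, 9.04 and 9.04 in pre-osteoblasts, 9.15, 9.04 and 9.15 in osteoblast cultures, and 8.87, 9.02 and 8.93 in lines 1, 2 and 3. All lines lay below all Kusa4b10 arrays, but by a gap of only 0.02. The differences were -0.14 ± 0.06 from pre-osteoblasts (limma adjusted p = 0.163) and -0.17 ± 0.06 from osteoblasts (limma adjusted p = 0.0825), so neither passed. Mxd1, Mxi1, Mnt and Mlx thus each read below all Kusa4b10 arrays in all 3 lines, and of these Mxd1, Mxi1 and Mlx were called against osteoblasts. The share of all genes that did so was not counted, so this pattern is not shown to be particular to the network.

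Mlx encodes the MAX-like partner of the Mondo proteins. It read 11.23, 11.41 and 11.16 in pre-osteoblasts, 11.29, 11.35 and 11.42 in osteoblast cultures, and 10.97, 11.10 and 10.69 in lines 1, 2 and 3. Line 3 was the lowest array, at -0.58 from the pre-osteoblast mean, and line 2 the highest of the lines. In the lines Mlx fell by 0.43 ± 0.11 relative to osteoblasts, or 1.35-fold (limma adjusted p = 0.0208). The call was lost without osteoblast sample 2 (adjusted p = 0.0533) or sample 3 (0.0755). Against pre-osteoblasts the difference was -0.35 ± 0.11 (limma adjusted p = 0.0560), and it passed without line 2 (-0.44, adjusted p = 0.0229). Osteoblasts and pre-osteoblasts overlapped, with a difference of 0.09 ± 0.11 (limma adjusted p = 0.656).

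The Mondo proteins themselves are encoded by Mlxip (MondoA) and Mlxipl (ChREBP). Mlxip read 10.20 to 10.27 in pre-osteoblasts, 10.003 to 10.02 in osteoblast cultures and 9.90 to 9.93 in the lines, so the groups did not overlap. It fell by 0.22 ± 0.05 in osteoblasts (limma adjusted p = 0.00798) and by 0.32 ± 0.05 in the lines (limma adjusted p = 0.00185), both relative to pre-osteoblasts. The lines and osteoblasts differed by -0.09 ± 0.05 (limma adjusted p = 0.172). Mlxipl, at group means of 7.48 to 7.55, was not called in any comparison.

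Of 12 genes taken here as targets of MLX with Mondo proteins, 1 was higher and 5 lower in osteoblasts than in pre-osteoblasts. The 1 was the desaturase gene Scd1 (0.25), whose call was lost without osteoblast samples 1 or 3 or pre-osteoblast samples 2 or 3 (adjusted p up to 0.0974). Txnip, a glucose-induced arrestin, fell by 1.97 ± 0.51 (limma adjusted p = 0.0226), but not without osteoblast sample 2 or 3 or pre-osteoblast sample 1 or 3 (adjusted p up to 0.0776). In the lines, 2 were higher and 4 lower than in pre-osteoblasts. The 2, led by Arrdc3 (0.59), became 0 without line 1, line 3 or pre-osteoblast sample 2 or 3 and 1 without pre-osteoblast sample 1. The 4 became 2 without line 3, osteoblast sample 1 or 3 or any pre-osteoblast sample. Arrdc4, another arrestin, had the largest called fall there (-1.15, limma adjusted p = 0.0486), lost in 7 of 9 fits with 1 array left out. The glucose-6-phosphatase gene G6pc3, counted on this list, read 9.80 to 10.36 in the lines and 11.04 to 11.13 in pre-osteoblasts (-1.08, limma adjusted p = 0.00106). Against osteoblasts, 4 were higher and 3 lower in the lines, and the 4 became 2 without line 1 or osteoblast sample 2. The largest called rise was that of Txnip (1.78, limma adjusted p = 0.0329), lost in 5 of 9 fits with 1 array left out. Arrdc4 read 8.97, 7.79 and 8.89 in lines 1, 2 and 3 and 9.50 to 10.39 in osteoblasts (-1.42 ± 0.35, limma adjusted p = 0.0185). That call was lost without osteoblast sample 1 (0.0721) or 3 (0.0608). In the 3 comparisons 50%, 50% and 58.3% of the list were called, beside 26.1%, 23.5% and 27.4% of all genes. Of genes above the median level, fitted alone, 46.2%, 40.3% and 47.0% were called. Genes of this list moved in both directions, and its median differences in the 3 comparisons were -0.18, -0.20 and -0.05.

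A further 6 genes encode proteins tied to the network. Mycbp, which encodes a small MYC-binding protein, read 9.72, 10.07 and 10.003 in pre-osteoblasts, 9.03, 9.47 and 8.91 in osteoblast cultures, and 10.82, 10.74 and 10.39 in the lines. Its groups were in separate ranges and in the same order as those of Mxd3. It fell by 0.79 ± 0.17 in osteoblasts relative to pre-osteoblasts (limma adjusted p = 0.0106), and the lines exceeded osteoblasts by 1.51 ± 0.17 (limma adjusted p = 5.16e-04). The lines exceeded pre-osteoblasts by 0.72 ± 0.17 (limma adjusted p = 0.0188), a call lost without line 1 (0.0614) or pre-osteoblast sample 1 (0.0679).

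Mga, which encodes a large MAX partner with repressor functions, read 10.55, 10.23 and 10.37 in pre-osteoblasts, 10.91, 10.67 and 11.03 in osteoblast cultures, and 10.18, 10.49 and 10.33 in the lines. Osteoblasts lay above all other arrays. They exceeded pre-osteoblasts by 0.49 ± 0.12 (limma adjusted p = 0.0215), which was lost without osteoblast sample 1 or 3 or pre-osteoblast sample 2 or 3 (adjusted p up to 0.0802). The lines were lower than osteoblasts (-0.53 ± 0.12, limma adjusted p = 0.0135), which was lost without osteoblast sample 1 (0.0513) or 3 (0.0536). Mycs, a MYC-like gene, and Mycbp2, a large ubiquitin ligase, were not called in any comparison.

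Of 19 measured cofactor genes, whose proteins work with MYC or with the repressors, 6 were lower and 0 higher in osteoblasts than in pre-osteoblasts. Hdac1, a histone deacetylase of the SIN3 complexes that MXD proteins recruit, read 11.73, 11.77 and 11.85 in pre-osteoblasts, 10.65, 10.79 and 10.65 in osteoblast cultures, and 12.30, 12.39 and 11.74 in lines 1, 2 and 3. It fell by 1.09 ± 0.15 in osteoblasts (limma adjusted p = 0.00146) and was 1.45 ± 0.15 higher in the lines than in osteoblasts (limma adjusted p = 3.86e-04). Bin1, a MYC-interacting adaptor described as a tumour suppressor, read 11.23 to 11.34 in pre-osteoblasts, 10.19 to 10.35 in osteoblast cultures and 10.83 to 11.30 in the lines, and was also called in both of these comparisons. Between the lines and osteoblasts 7 cofactors were higher and 2 lower, and without osteoblast sample 1 these counts were 3 and 0. Without osteoblast sample 3 no cofactor was lower, and without line 1 or line 2 only 1 was. Between the lines and pre-osteoblasts 3 were lower, all by 0.30 or less: Kat5, Trrap and Ccnt1. Without line 3, 1 cofactor was higher. The count of 3 was 0 without pre-osteoblast sample 1 and 1 without line 1, osteoblast sample 1 or 3, or pre-osteoblast sample 2 or 3. In the 3 comparisons 31.6%, 15.8% and 47.4% of the cofactors were called, beside 26.1%, 23.5% and 27.4% of all genes. All cofactors were above the median gene on every array. Of genes above the median level, fitted alone, 46.2%, 40.3% and 47.0% were called. The median differences of the list in the 3 comparisons were -0.22, -0.03 and 0.20.

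Of 18 measured genes for proteins that stabilise or degrade MYC, 2 were higher and 7 lower in osteoblasts than in pre-osteoblasts. Cip2a, whose protein blocks the phosphatase PP2A and so protects MYC, read 9.45, 10.34 and 9.99 in pre-osteoblasts, 7.63, 8.21 and 7.41 in osteoblast cultures, and 10.46, 10.96 and 10.47 in the lines. It fell by 2.18 in osteoblasts (limma adjusted p = 8.76e-04) and was 2.88 ± 0.28 higher in the lines than in osteoblasts (limma adjusted p = 2.37e-04). Ppp2r5a, a PP2A subunit that directs the phosphatase to MYC, rose by 0.97 ± 0.17 in osteoblasts (limma adjusted p = 0.00384). In the lines it rose by 0.73 ± 0.17, also against pre-osteoblasts (limma adjusted p = 0.0163). That call was lost without pre-osteoblast sample 2 (0.0522) or 3 (0.0604). The lines and osteoblasts differed in Ppp2r5a by -0.24 ± 0.17 (limma adjusted p = 0.361). Plk1 and Aurka, mitotic kinases on this list, moved like the proliferation genes, with Plk1 lower in osteoblasts than in pre-osteoblasts (-2.56 ± 0.35, limma adjusted p = 0.00130). Btrc, a ubiquitin ligase subunit, was lower in osteoblasts (-0.58) and in the lines (-0.62) than in pre-osteoblasts. Against pre-osteoblasts 3 were higher and 4 lower in the lines, and the 3 became 5 without line 3 and 1 without pre-osteoblast sample 3. Against osteoblasts 7 were higher and 1, Usp36, was lower (-0.51 ± 0.07, limma adjusted p = 0.00136). In the 3 comparisons 50%, 38.9% and 44.4% of the list were called. These stand beside 26.1%, 23.5% and 27.4% of all genes, and 46.2%, 40.3% and 47.0% of genes above the median level. The median differences of the list in the 3 comparisons were -0.17, 0.10 and 0.18.

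Next, genes that MYC is known to activate were examined, 59 of which were measured. In osteoblasts, where Myc was higher than in pre-osteoblasts, 7 targets were higher and 11 lower, and the list's median difference was 0.03, beside -0.0037 for all genes. In the lines against pre-osteoblasts, 3 were higher and 4 lower, with a median of 0.06 beside -0.016. These counts depended on single lines: 10 were higher without line 3, 11 were lower without line 2, and 1 was higher without pre-osteoblast sample 1. Between the lines and osteoblasts, where Myc was not called, 11 were higher and 9 lower, with a median of 0.0007 beside -0.018, and 15 were lower without line 2. Of the list, 30.5%, 11.9% and 33.9% were called in these comparisons, beside 26.1%, 23.5% and 27.4% of all genes. All genes are an unlike set, since only 2 to 4 of the 59 targets were below the median gene on an array. In a fit of the genes above the median level alone, 46.2%, 40.3% and 47.0% of genes were called.

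Hk2, which encodes the glycolytic enzyme hexokinase 2, is on this list and, like Myc, was lowest in pre-osteoblasts. It read 8.31, 8.27 and 8.26 in pre-osteoblasts, 9.66, 9.62 and 9.75 in osteoblast cultures, and 8.85, 8.92 and 8.95 in the lines. It rose by 1.40 ± 0.06 in osteoblasts (limma adjusted p = 7.88e-06) and by 0.63 ± 0.06 in the lines (limma adjusted p = 2.13e-04), each against pre-osteoblasts, so the groups did not overlap. Unlike Myc, it was lower in the lines than in osteoblasts (-0.77, limma adjusted p = 7.97e-05). Dctpp1, a nucleotide-pool enzyme, was 0.70 higher in the lines than in pre-osteoblasts (limma adjusted p = 0.0142), not called without pre-osteoblast sample 1 (0.0513). Of the 11 targets lower in osteoblasts, Plk1, Plk4, Mcm4 and Mcm5 act in mitosis, centriole copying or DNA replication. Tcof1 and Noc4l were also among the 11. The Tcof1 call was lost without any 1 of the osteoblast samples or pre-osteoblast sample 2 (adjusted p up to 0.0654). The 7 that were higher were Hk2, Gnl3, Prmt3, Exosc5, Wdr43 (0.42), Wdr74 (0.39) and Ndufaf4 (0.84). Gnl3 encodes a nucleolar protein of proliferating and stem cells. Of the 7, only Ndufaf4 lost its call with 1 array left out (6 of 9 fits, limma adjusted p up to 0.109). Ppil4, a peptidyl-prolyl isomerase-like gene, was lower in the lines than in pre-osteoblasts (-0.81) and osteoblasts (-1.05).

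Of these targets, 51 had a RefSeq window, and 14 of the 51 held CACGTG in it. Of those 14, 3 were higher and 1 lower in osteoblasts than in pre-osteoblasts, and 0 were higher and 1 lower in the lines than in pre-osteoblasts. Of the 37 without it, 4 were higher and 8 lower in osteoblasts, and 3 were higher and 2 lower in the lines. The median difference between osteoblasts and pre-osteoblasts was 0.12 with the letters and -0.0074 without them, and that between the lines and pre-osteoblasts was -0.04 and 0.14. These are descriptions of few genes, and the difference between the sets was not tested.

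Polyamine and nucleotide synthesis genes include direct MYC targets, and those called in a comparison were all on the same side. Of 17 measured, 8 were lower and 0 higher in osteoblasts than in pre-osteoblasts, where Myc was higher. Odc1, the rate-limiting enzyme of polyamine synthesis and a classic MYC target, read 9.70, 9.87 and 9.89 in pre-osteoblasts, 9.29, 9.66 and 9.30 in osteoblast cultures, and 10.67, 11.04 and 10.06 in lines 1, 2 and 3. The lines were above all other arrays, and exceeded osteoblasts by 1.17 (limma adjusted p = 0.00560). Their excess over pre-osteoblasts was 0.77 (limma adjusted p = 0.0406), a call lost when line 1 or 2 or any Kusa4b10 array other than osteoblast sample 2 was left out (adjusted p up to 0.122). Tyms, thymidylate synthase, read 10.13 to 10.90 in pre-osteoblasts, 9.20 to 9.49 in osteoblast cultures and 11.41 to 11.73 in the lines, and was called in all comparisons. Rrm2, a ribonucleotide reductase subunit needed in S phase, fell by 2.19 ± 0.40 in osteoblasts (limma adjusted p = 0.00486). In the lines 3 were higher than in pre-osteoblasts (5 without line 3) and 10 were higher than in osteoblasts, with 0 lower in both. At an unadjusted p under 0.05, 6 were higher and 1 lower in the lines than in pre-osteoblasts. In the 3 comparisons 47.1%, 17.6% and 58.8% of the list were called. These stand beside 26.1%, 23.5% and 27.4% of all genes, and 46.2%, 40.3% and 47.0% of genes above the median level. All genes of the list were above the median gene on every array. The median differences of the list in the 3 comparisons were -0.32, 0.33 and 0.60. Proliferation genes, with the means given above, moved the same way, and their part in these differences was not tested.

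Of 13 measured metabolic genes linked to MYC, 3 were higher and 2 lower in osteoblasts than in pre-osteoblasts, 3 higher and 1 lower in the lines than in pre-osteoblasts, and 2 higher and 3 lower in the lines than in osteoblasts. The serine synthesis gene Psat1 was lower than in pre-osteoblasts in osteoblasts (-0.44, limma adjusted p = 0.00336) and in the lines (-0.35, limma adjusted p = 0.0113). Phgdh, also of serine synthesis, was higher than in pre-osteoblasts in osteoblasts (0.41, limma adjusted p = 0.0107) and in the lines (0.43, limma adjusted p = 0.0104). Both Phgdh calls held without each array in turn. Pkm, pyruvate kinase, read 11.87 to 12.18 in pre-osteoblasts, 11.46 to 11.69 in osteoblast cultures and 12.10 to 12.53 in the lines. It exceeded osteoblasts by 0.84 ± 0.13 in the lines (limma adjusted p = 0.00228). Slc3a2, a subunit of amino acid transporters, was lower there (-0.84 ± 0.15, limma adjusted p = 0.00401). The largest rises over pre-osteoblasts were those of Mthfd2 (0.51) in osteoblasts and Shmt1 (0.54) in the lines, both enzymes of folate metabolism. The Shmt1 call was lost without line 1 or 2 or pre-osteoblast sample 1 or 3 (adjusted p up to 0.0697). The 2 lower in osteoblasts became 1 without osteoblast sample 1 or 3 or pre-osteoblast sample 2 or 3, when Pkm was not called. The 3 higher in the lines than in pre-osteoblasts became 1 without pre-osteoblast sample 3, and the 1 lower became 2 without line 3. The 2 higher in the lines than in osteoblasts became 1 without line 1 or 2 or osteoblast sample 1 or 3, and 4 without line 3. In the 3 comparisons 38.5%, 30.8% and 38.5% of the list were called. These stand beside 26.1%, 23.5% and 27.4% of all genes, and 46.2%, 40.3% and 47.0% of genes above the median level. The median differences of the list in the 3 comparisons were 0.19, 0.17 and 0.02.

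Of 13 measured genes that MYC is known to repress, 3 were higher and 3 lower in osteoblasts than in pre-osteoblasts. Gadd45a, a growth arrest gene, read 8.01, 7.71 and 7.70 in pre-osteoblasts, 12.01, 10.78 and 12.11 in osteoblast cultures, and 8.73, 8.50 and 9.08 in the lines. It rose by 3.83 ± 0.33 in osteoblasts (limma adjusted p = 1.49e-04), where Myc was higher as well, and was lower in the lines than in osteoblasts (-2.86, limma adjusted p = 5.45e-04). Cdkn2b, the CDK inhibitor p15 and a classic MYC-repressed gene, read 9.18 to 9.47 in pre-osteoblasts, 8.87 to 9.24 in osteoblast cultures and 10.06, 10.60 and 10.45 in lines 1, 2 and 3. It was 1.03 ± 0.15 higher in the lines than in pre-osteoblasts (limma adjusted p = 0.00208). Cebpa, a regulator of adipocyte differentiation, was lower there (-1.13 ± 0.26, limma adjusted p = 0.0146), not called without pre-osteoblast sample 1 (0.0530). In the lines 2 genes were higher and 2 lower than in pre-osteoblasts, and 4 were higher and 4 lower than in osteoblasts. The 2 higher than in pre-osteoblasts became 1 without line 1, line 3 or pre-osteoblast sample 2 or 3, and the 2 lower became 0 without pre-osteoblast sample 1. Gadd45b fell by 0.82 in osteoblasts (limma adjusted p = 0.0131), not called without osteoblast sample 1 (0.0533) or 3 (0.0508). In the 3 comparisons 46.2%, 30.8% and 61.5% of the list were called. These stand beside 26.1%, 23.5% and 27.4% of all genes, and 46.2%, 40.3% and 47.0% of genes above the median level. The list moved in both directions in each comparison, with median differences of -0.24, 0.12 and -0.12.

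**Figure D4:**
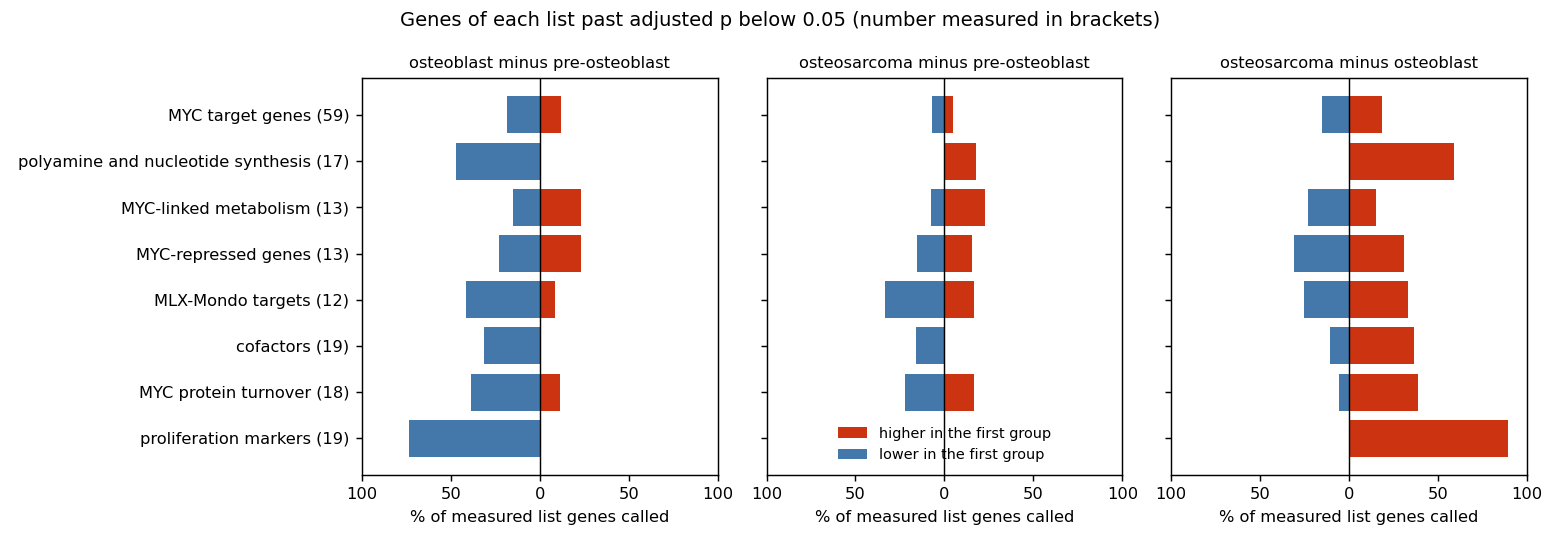
Share of the measured genes of each list (horizontal axis, percent; number measured in brackets) called higher, to the right, or lower, to the left, in the first group of each comparison, at an adjusted p below 0.05. MYC target and MYC-repressed genes split between both directions, whereas polyamine and nucleotide synthesis and proliferation genes were called lower in osteoblasts and higher in the tumour lines relative to osteoblasts.

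Myc and Mxd3 were the only network genes whose group means spanned at least 1 log2 unit, and the genes with the most similar profiles were sought for them. Likeness was Pearson's r over the 9 arrays among 1765 genes with a mean above the median gene and group means spanning at least 1. The nearest to Myc were Zbtb20, a zinc finger repressor (r = 0.971), Clec11a, a secreted growth factor of bone (r = 0.969), and Vaultrc5, a vault RNA (r = 0.965). Clec11a read 7.17, 7.20 and 6.94 in pre-osteoblasts, 8.77, 9.32 and 8.81 in osteoblast cultures, and 8.59, 9.61 and 10.11 in lines 1, 2 and 3. As with Myc, pre-osteoblasts were low and line 1 was the lowest line. The nearest to Mxd3 were Topbp1, a replication and checkpoint protein (r = 0.985), Peg10, an imprinted retrotransposon-derived gene (r = 0.985), and Shcbp1, an SHC-binding protein of dividing cells (r = 0.984). Shcbp1 read 7.60, 8.58 and 8.25 in pre-osteoblasts, 5.68, 6.95 and 5.67 in osteoblast cultures, and 9.58, 10.27 and 9.53 in the lines. These correlations are descriptions: the 9 points form 3 groups, and the genes were picked for their r.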

How the data were processed

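The authors deposited log2 expression values per probe set. The submitters' processing notes name RMA and build mm9, and for RMA's version and settings nothing is stated there. Normalization between arrays makes each value relative to the other genes of its array. Of 35556 probe sets, 21789 had 1 gene symbol in the platform annotation and were used. For 999 genes with several, the probe set with the highest mean was taken.

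Group means were fitted in R 4.3.3 by limma 3.58.1, over all 9 arrays (6 residual and 2.19 prior degrees of freedom, two-sided, Benjamini-Hochberg over 19938 genes). Each gene had 1 spread for all 3 groups, so an SE mixes spread between lines with that among Kusa4b10 samples. These differed: the SD of Max was 0.21 in the lines, 0.05 in osteoblasts and 0.06 in pre-osteoblasts. For Mycn these SDs were 0.012, 0.075 and 0.090. The fit was tested on simulated data. With 3 arrays a group, their number limits the precision. List genes without a single-symbol probe set were not analysed here.

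The members, lists and naming rule were chosen with earlier results of these data known. Named were all members, all genes of lists of at most 10 and the 3 nearest profiles. For each list and comparison, the called genes with the largest rise and fall were named. Trrap, Ccnt1, Bin1, Aurka, Odc1, Plk4, Mcm4, Mcm5, Tcof1, Noc4l, Gnl3, Prmt3, Exosc5, Wdr43, Wdr74, Ndufaf4, Phgdh, G6pc3 and Rb1 were added after their values were seen. Alternatives were filters on dim genes, averaged probe sets, repeated quantile normalization, median centring, only the 2 groups compared, 1 weight per group, a replicate block and each array left out. Sequences are RefSeq's (GRCm38.p6), searched for exact letters.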

Additional observations from a re-analysis of the deposited data

How the results depend on the processing

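Under the alternatives listed above, the calls of Myc and Mxd3 in osteoblasts against pre-osteoblasts, of Myc in the lines against pre-osteoblasts, and of Mxd3, Mxd1 and Mxi1 in the lines against osteoblasts all kept their direction and side of the threshold. Myc ranged from 0.90 to 1.01 in osteoblasts and from 1.03 to 1.31 in the lines. The call of Mxd1 in the lines against pre-osteoblasts was lost in 8 of 16 alternatives, with adjusted p up to 0.0986; besides the arrays named above these were repeated quantile normalization (0.0547), only the 2 groups compared (0.0604) and 1 weight per group (0.0741). Mlx in the lines against pre-osteoblasts passed among genes above the median level (0.0415) or the lower quartile (0.0477) and after quantile normalization (0.0450), and Mycn in osteoblasts passed with 1 weight per group (0.0497). Directions reversed where differences were near 0: Mycl in the lines against pre-osteoblasts (0.0047 after quantile normalization, 0.012 after centring), Max in the same comparison (0.031 after centring, -0.115 to 0.092 with single arrays left out), Mycn in the lines against osteoblasts (0.017 after quantile normalization and 0.023 after centring) and Mxd4 there (-0.012 to 0.35 with single arrays left out). MYC target genes called higher in osteoblasts numbered 12 with only the 2 groups compared and 11 with 1 weight per group. In the lines against pre-osteoblasts 6 were higher after quantile normalization and 5 after centring. With single arrays left out, network genes called numbered 1 to 3 in that comparison and 3 to 5 by the F test, MYC targets there 1 to 10 higher and 4 to 11 lower, and MYC targets lower in the lines than in osteoblasts 8 to 15. The cause was not tested. Among genes above the median level, the share of all genes called rose to 46.2%, 40.3% and 47.0%. Osteoblast and pre-osteoblast samples share numbers; deviations of same-numbered samples correlated at 0.152, 0.176 and 0.0278, and osteoblast sample 3 correlated best with pre-osteoblast sample 1, so the numbers were not taken as pairs. With the replicate number as a block, 2 network genes were called, Myc among them (adjusted p = 0.00284), and 8 MYC targets were higher and 14 lower. Each group has 3 arrays, and Mycn and Mycl lie in the dim range, where small differences may not be detectable.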

Other observations

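The osteoblast and adipocyte marker lists set the osteoblast cultures apart from pre-osteoblasts and the lines. The mean osteoblast marker level was 10.6 to 11.4 in osteoblast cultures. It was 8.3 to 8.6 in pre-osteoblasts and 8.5 to 9.1 in the lines, which overlapped. In osteoblast cultures, the bone sialoprotein gene Ibsp was 6.97 ± 0.45 higher than in pre-osteoblasts (limma adjusted p = 4.61e-05), and in the osteosarcoma lines it fell by 6.18 relative to osteoblasts. Alpl, alkaline phosphatase, was the 1 osteoblast marker higher in the lines than in pre-osteoblasts (2.37 ± 0.72, limma adjusted p = 0.0468), and leaving out any 1 array other than line 1 ended that call. Of the adipocyte markers, Cd36 (5.28), Retn (4.69), Adipoq (4.65), Plin1 (3.00), Fabp4 (2.96) and Cidec (1.93) were higher in osteoblast cultures than in pre-osteoblasts, while Lpl (0.79), Lep (0.23) and Pparg (0.20) did not pass. Pparg fell by 1.54 in the lines relative to pre-osteoblasts (limma adjusted p = 0.00195), and all adipocyte markers but Lep were lower in the lines than in osteoblasts. Group means of the haematopoietic and macrophage markers Ptprc, Adgre1, Csf1r, Tyrobp, Fcer1g, Spi1, Itgam and Laptm5 were below the median gene in every group, and those of Cd68 and Cd14 were between 7.61 and 8.22. Group means ran from 5.08 to 7.48 for the endothelial markers Pecam1, Cdh5, Kdr, Tek, Emcn and Tie1. For the epithelial markers Epcam, Cdh1, Krt8, Krt18, Krt14 and Krt5 they ran from 6.20 to 8.10.

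Some network genes varied together over the 9 arrays. Mxd1 and Mxi1 had a Pearson's r of 0.935, Mxi1 and Mnt 0.894, and Mxd1 and Mnt 0.808. Mxd3 ran against them, with r of -0.82 to Mxd1, -0.79 to Mxi1 and -0.739 to Mnt. Myc had r between -0.56 and 0.724 with the other 9 genes and 0.0956 with Mxd3. The points form 3 groups of arrays, so these values mainly restate the group means, and no test was made.

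The tumour lines were not alike across the network. The share of all genes with a range over the lines no wider than a member's ran from 3.67% for Mycn to 90.6% for Mxd4. Line 1 was the lowest line for Myc, Mxd1, Mxd3, Mxi1 and Mnt, by 0.53 against the mean of the other lines for Myc (-0.53) and by 0.29 for Mxd3 (-0.29). Line 3 was the lowest for Max (-0.34) and Mlx (-0.35) and the highest for Mxd4 (0.53). Line 2 was the highest for Max (0.28) and Mlx (0.27) and the lowest for Mxd4 (-0.56). Each line has 1 array, so the spread between arrays of a line is unknown.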
